A study of Mus musculus with 3 samples.

Results

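The genes described here are 10 genes of the small RNA pathways and of germ granules: Dicer1, Ago2, Piwil1, Piwil2, Piwil4, Mael, Ddx4, Tdrd1, Mov10l1 and Pld6. They were chosen by name, and each was read through the windows of 2 kb that overlap its gene body in GENCODE release M21 on GRCm38. Their bodies span 269 such windows, of which 261 were valid, out of 1186323 valid windows in the genome. H3K36me3, the trimethylation of lysine 36 of histone H3, was mapped in fully-grown germinal vesicle (GV) oocytes with an ultra-low-input form of native ChIP-seq. The 3 replicates were pools of about 280 oocytes from 25-day-old wild type C57BL6/Babr mice, and they made up a single group with no other genotype or treatment. Less antibody went into replicate 2 than into replicates 1 and 3.

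Small RNAs silence transposons and shape the transcriptome in germ cells. Dicer cuts double-stranded RNA and hairpins into short guides that Argonaute proteins carry, whereas PIWI proteins carry piRNAs that are made without Dicer, largely in germ granules (nuage) beside mitochondria. Mouse oocytes are known for abundant endogenous siRNAs, and male mice, but not females, are sterile without several of the piRNA genes. H3K36me3 is laid down over gene bodies as RNA polymerase II elongates, and in growing oocytes it precedes DNA methylation of transcribed regions.

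Values are RPKM, the authors' depth-scaled reads per window, averaged over the windows of a gene. A window was called enriched at a mean of the 3 replicates above 1. Recovered reads in valid windows numbered 7888140, 2692510 and 3166564 in replicates 1 to 3, so that 1 read was worth 0.136, 0.396 and 0.338 RPKM, and the 10 genes held 4063, 1509 and 1811 of these reads. Over the member windows, Pearson's r between replicates was 0.504 for replicates 1 and 2, 0.622 for 1 and 3, and 0.407 for 2 and 3, across 261 neighbouring windows of the same libraries. Values of single windows are therefore uncertain. As a check of the cell type, all 10 oocyte markers had a mean above 1 (1.53 for Nlrp5 to 3.73 for Bmp15). Of 7 granulosa cell markers 2 did, Amh at 1.39 and Nr5a2 at 2.02, with list means of 0.647 to 0.973 in the replicates. None of 4 male germ cell markers did (0.226 to 0.783, list means of 0.499 to 0.613). The part of other cells in the values below was not tested.

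H3K36me3 covered 9 of the 10 genes at a mean above 1 RPKM, among them 3 of the 4 that are best known from the testis. Across the genome 52.5% of protein-coding genes passed this level. The remaining gene was Piwil4, with a mean of 0.412 ± 0.136 (SD, n = 3) and no enriched window. In all, 215 of the 261 member windows (82.4%) were enriched, against 31.8% of all valid windows and 51.1% of the windows of other protein-coding genes. Of these 215 windows, 175 were above 1 in each replicate. The same share among enriched windows of other genes was not computed.

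**Figure D1:**
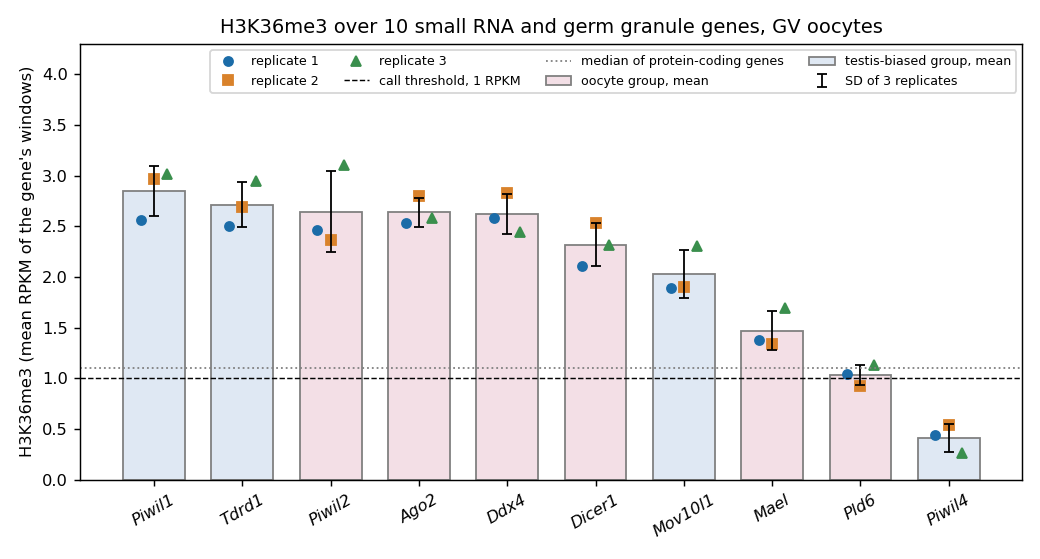
Mean H3K36me3 (RPKM of the windows of each gene, vertical axis) for the 10 genes, ordered by level; bars are means of 3 replicates, points the replicates, error bars the SD, and the dashed and dotted lines the threshold of 1 and the median protein-coding gene (1.10). The bars of Piwil1 (2.85) and Tdrd1 (2.71) stand highest, those of Pld6 (1.03) and Piwil4 (0.412) lowest.

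As a whole, the member windows had 2.11, 2.29 and 2.35 RPKM in replicates 1, 2 and 3. Windows of all other protein-coding genes had 1.28, 1.30 and 1.34. The log2 ratio was 0.78 ± 0.05 (SD, n = 3) and positive in each replicate (two-sided exact sign-flip permutation test, p = 0.25). This is the smallest p that 3 replicates allow, so no comparison between levels here can reach 0.05. Ordered by level, the genes were Piwil1, Tdrd1, Piwil2, Ago2, Ddx4, Dicer1, Mov10l1, Mael, Pld6 and Piwil4. The neighbours Tdrd1 and Piwil2, Piwil2 and Ago2, Ago2 and Ddx4, and Dicer1 and Mov10l1 differed by less than 1 SD of their difference between replicates.

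Dicer1, which encodes the RNase III enzyme that makes microRNAs and siRNAs, lies on the minus strand at chr12:104687742-104751952 (ENSMUSG00000041415.10). Its 33 windows averaged 2.11, 2.53 and 2.32 RPKM, a mean of 2.32 ± 0.214 that lay above 88.6% of protein-coding genes, and 29 of them were enriched. In mouse oocytes a shorter, more active Dicer is known to be made from a transposon-derived promoter in intron 6, which leaves out the first exons and is translated from within exon 7. The signal along the gene changed near that intron. The 11 windows before intron 6 had 1.52, 2.02 and 0.984 RPKM in replicates 1, 2 and 3. The 3 windows that touch intron 6 had 2.99, 5.55 and 5.30, and the 19 windows after it 2.31, 2.36 and 2.62. Thus the windows at the intron were the highest and those before it the lowest in every replicate. The most upstream of the 3 windows at the intron, which holds exons 5 and 6, lies mostly before intron 6.

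After intron 6 the level was higher than before it by 0.75 ± 0.61 on the log2 scale, with 0.60, 0.22 and 1.41 in the replicates (exact sign-flip permutation test, p = 0.25). Windows at the intron exceeded those before it by 1.62 ± 0.74 and those after it by 0.88 ± 0.45, both in 3 of 3 replicates (exact sign-flip p = 0.25 for each). The step depended on where the boundary was put. With the gene divided at the middle of intron 6 it was 0.30, at intron 7 it was 0.14, and in both cases replicate 2 was negative (-0.08 and -0.30). Without replicate 3 the step was 0.41.

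**Figure D2:**
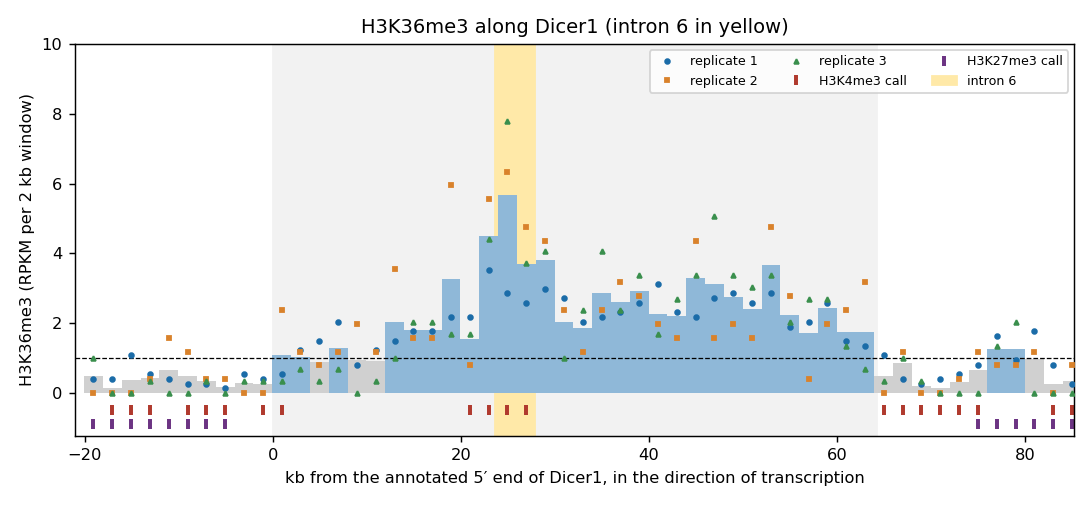
H3K36me3 (RPKM per 2 kb window, vertical axis) against the distance from the annotated 5′ end of Dicer1 in kb; bars are the mean of 3 replicates (blue where enriched), points the replicates, ticks below the H3K4me3 and H3K27me3 calls, the grey field the gene and the yellow field intron 6. The highest bar (5.66) lies inside intron 6, under a run of 4 windows also called for H3K4me3.

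Intron 1, the longest of the 26 introns at 19.8 kb, had 1.46, 2.14 and 0.922 RPKM. Within it the 6 windows nearest the annotated start lay between 0.875 and 1.30, 3 of them below 1, and the next 4 between 1.79 and 3.27. Replicate 2 supplied much of the window just before exon 2, with 5.95 RPKM against 2.17 and 1.69 in the others. Introns 2 and 3, which are shorter than a window and share 1, were both read at 1.55. The level then rose to 4.05 in intron 4 and 4.49 in intron 5. Intron 6 (chr12:104724071-104728332, 4.26 kb) had the highest mean (4.68 ± 1.64), at 2.78, 5.56 and 5.68 RPKM. In replicate 1, the deepest library, it lay below introns 4, 5 and 7 (3.33, 3.53 and 2.99) and also below introns 11, 12 and 20 (3.06, 2.97 and 2.84), in replicate 2 it was level with intron 5 (5.55), and in replicate 3 it was the highest. Past it intron 7 stood at 3.80, intron 8 (7.06 kb) at 2.31 ± 0.153 and intron 22 (3.22 kb) at 3.14 ± 0.665. From intron 8 to intron 26 the means ranged from 1.81 to 3.31, and the neighbouring intron values that come from shared windows are not independent.

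The window with the highest mean of the gene, chr12:104726001-104728000, contained no exon of the principal transcript and had 2.85, 6.34 and 7.78 RPKM from 60 reads. With the window on either side of it and the next one upstream, it made a run of 4 windows called for both H3K36me3 and H3K4me3. H3K4me3 marks active promoters and also forms broad domains in oocytes. The only other such window of Dicer1 was the one at the annotated start, which had 0.543, 2.38 and 0.338 RPKM and passed the threshold through replicate 2. Both calls together were found in 7.21% of the windows of protein-coding genes and in 5 of the 33 windows of Dicer1. GENCODE places the start of a minor transcript, Dicer1-202, in the most upstream window of the run, at position 104730164, and no start in the 3 windows that touch intron 6. The minor transcript Dicer1-206 starts at position 104722052, in the window directly downstream of these 3, which had 3.80 RPKM and H3K36me3 alone. Dicer1-204 and Dicer1-205 start further downstream, at position 104700502. Another minor transcript, Dicer1-203, starts within intron 1 at position 104738837. Its start lies in the window where the longest unbroken stretch of enriched windows of the gene (52 kb) begins. No Dicer1 window was called for H3K27me3, a repressive mark, whereas 8 of the 10 windows upstream of the gene were. That flank had 0.360 ± 0.110 RPKM, so that the body exceeded it by 2.73 ± 0.53 on the log2 scale. The part before intron 6 (1.51 ± 0.517) thus lay between the flank and the rest of the gene.

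Exon 7, the first exon downstream of the highest windows, is printed to show what the region after intron 6 can encode. It has 169 bases at chr12:104723902-104724070 (minus strand, GRCm38.p6 sequence from RefSeq) and lies wholly within the coding sequence of Dicer1-201. It holds 1 ATG in the frame of the full-length protein, in capitals, at codon 262 of 1906, with 13.7% of the codons before it and no in-frame stop codon within the exon. The triplet is a feature of the sequence, and no transcript was measured here.
Dicer1 exon 7: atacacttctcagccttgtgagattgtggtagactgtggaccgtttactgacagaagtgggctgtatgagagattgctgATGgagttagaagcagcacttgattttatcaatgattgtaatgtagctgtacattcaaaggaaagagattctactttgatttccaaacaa

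The 5 protein-coding genes most like Dicer1 in profile, by Pearson's r over 10 equal parts of the body among 9653 genes of at least 20 kb, were Usp50 (0.959), Prdm10 (0.958), Slc15a5 (0.941), Prpf4b (0.938) and Scrn3 (0.938). In 3 of them, Usp50, Slc15a5 and Prpf4b, the highest of the 10 parts was part 4, as in Dicer1. Because the genes were picked by likeness over these same parts, a shared highest part follows in part from the choice.

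Ago2 encodes the Argonaute that cleaves target RNA. Its gene (chr15:73095844-73184935, minus strand) had 2.53, 2.80 and 2.58 RPKM, and 42 of 46 windows were enriched. The first 4 windows were called for H3K4me3 alone, with means of 0.181, 0.926, 0.316 and 0.868. Within the gene, enrichment began in the next window, which holds the start of a second annotated transcript, Ago2-203, 7.09 kb inside the gene. From there to the gene end, 41 of 41 windows were enriched at 2.72, 3.02 and 2.76 RPKM, while the first 7.09 kb had 0.679, 0.528 and 0.902 over 3 windows assigned by midpoint. The log2 ratio was 2.04 ± 0.45, positive in 3 of 3 replicates (exact sign-flip permutation test, p = 0.25). The first 7.09 kb did not differ from the 20 kb upstream beyond the spread (log2 ratio -0.05 ± 0.65).

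The other Argonautes were measured in the wider list of pathway genes. Ago1, Ago3 and Ago4 lie side by side on the minus strand of chr4 between 126331704 and 126533472. Ago3 had 2.29, 2.24 and 2.42 RPKM, close to Ago2, with 49 of 50 windows enriched. Ago1 had 0.679, 0.793 and 0.677, and Ago4 had 0.986, 0.948 and 0.868. Ago3 exceeded Ago1 by 1.70 ± 0.17 and Ago4 by 1.31 ± 0.14 on the log2 scale in 3 of 3 replicates (exact sign-flip p = 0.25 for each). Ago2 exceeded Ago3 by 0.19 ± 0.12.

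Among the PIWI genes, Piwil2 and Piwil1 were marked and Piwil4 was not. Piwil2 (chr14:70372477-70429383, minus strand) encodes MILI, the PIWI protein that cuts transposon transcripts and is also present in oocytes. It had 2.46, 2.36 and 3.10 RPKM. All of its 29 windows except the first were enriched, and that window, at the start, was called for H3K4me3 alone at 0.445. Replicate 3 stood above the other two, which gave Piwil2 the widest spread of the 10 genes (SD 0.402).

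Piwil1 encodes MIWI, the PIWI protein of meiotic and haploid male germ cells. The gene (chr5:128702524-128755474, plus strand) had the highest mean of the 10, with 2.56, 2.96 and 3.02 RPKM, and lay above 98.3% of protein-coding genes. By replicate, it was the highest only in replicate 2. Ddx4 (2.58) was higher in replicate 1 and Piwil2 (3.10) in replicate 3. All but 1 of the 25 valid windows of Piwil1 were enriched, and that window held 0 reads in any replicate beside 2 windows removed by the input filter. The principal transcript, Piwil1-201, starts at position 128736174, but the enriched stretch began 33.65 kb upstream of it, at the start of the minor transcript Piwil1-203. In the 20 kb before that distal start, 3 of 10 windows were enriched. The stretch between both starts had 2.41, 2.85 and 2.82 RPKM, the body from the principal start 2.80, 3.13 and 3.32, and the 20 kb before the distal start 0.788, 1.07 and 0.744. The distal stretch exceeded the upstream flank by 1.65 ± 0.26 on the log2 scale in 3 of 3 replicates (exact sign-flip permutation test, p = 0.25). From the distal stretch to the principal body the level went up by only 0.19 ± 0.05, again in 3 of 3 replicates.

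The window of the distal start was called for H3K36me3 and H3K4me3 (1.49, 3.17 and 2.37 RPKM) and was the only H3K4me3 window of Piwil1. All 10 windows upstream of it were also called for H3K4me3. The window of the principal start was called for H3K36me3 alone (4.07, 2.77 and 3.72). Past the gene end the signal went on at 3.10 ± 0.353 over 20 kb, which differed from the part past the principal start by less than the spread (log2 ratio 0.01 ± 0.10). The whole body against this flank gave a log2 ratio of -0.12 ± 0.07, negative in 3 of 3 replicates. The unbroken run of enriched windows that starts inside the gene, past the gap, reached 146 kb. The neighbouring gene Rimbp2 lies there on the opposite strand, and the assay does not tell strands apart.

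Piwil4 encodes MIWI2, the nuclear PIWI protein of fetal male germ cells. Over its body (chr9:14696230-14740733, minus strand) the 3 replicates had 0.437, 0.534 and 0.265 RPKM from 123 reads (95% exact Poisson interval 102.2 to 146.8, counting error only). None of 23 windows was enriched, and window means ran from 0.0453 to 0.894. Its replicates fell below every replicate of the other 9 genes, and it lay above only 26.5% of protein-coding genes. All 23 windows were called for H3K27me3, as were 19 of 20 windows in the flanks, and 13 of the 23 also for H3K4me3. Among protein-coding genes of at least 10 windows, 4.38% had every window called for H3K27me3. Of the other member windows only 2 had that call, the start windows of Mael and Mov10l1. Piwil1 exceeded Piwil4 by 2.85 ± 0.58 and Piwil2 exceeded it by 2.73 ± 0.73 on the log2 scale, both in 3 of 3 replicates (exact sign-flip p = 0.25 for each), while Piwil1 and Piwil2 differed by 0.11 ± 0.19. In 9 of the 23 windows of Piwil4 another annotated gene overlaps.

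**Figure D3:**
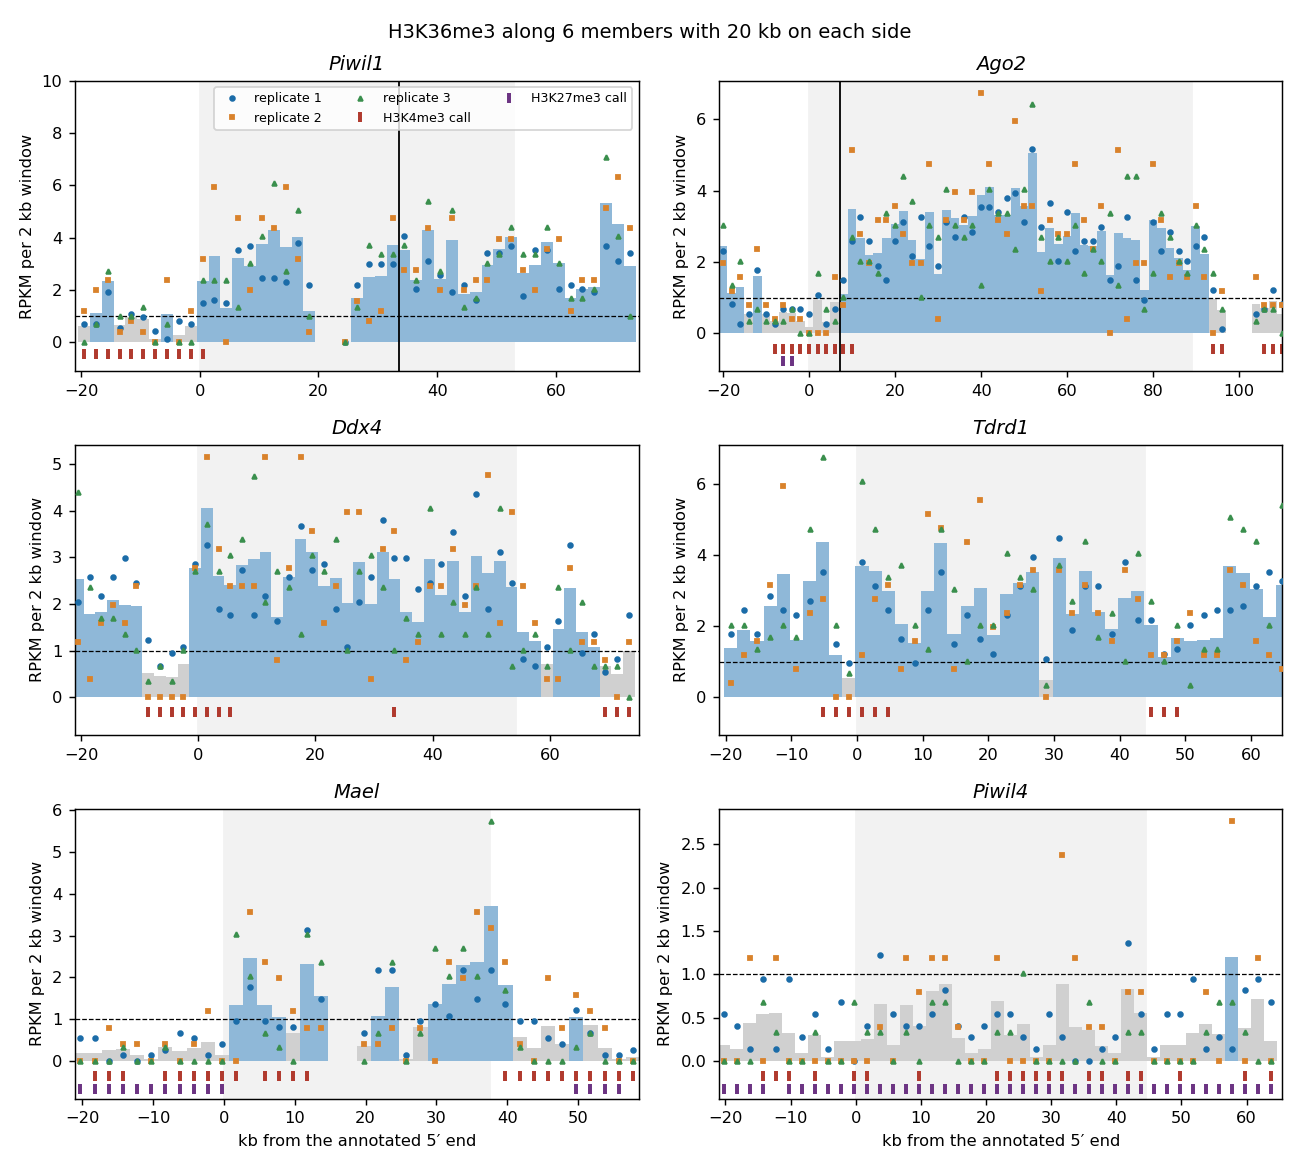
H3K36me3 (RPKM per 2 kb window, vertical axes of different height) against the distance from the annotated 5′ end in kb for 6 genes; bars are means of 3 replicates (blue where enriched), points the replicates, red and purple ticks the H3K4me3 and H3K27me3 calls, grey fields the genes, and black lines the starts of Piwil1-201 and Ago2-203. Within the gene bodies, enriched windows begin at the 5′ end of Piwil1, Ddx4 and Tdrd1 and 7.09 kb inside Ago2. The upstream flanks of these genes also hold enriched windows, most of all that of Tdrd1. Only Ddx4 of the 6 genes has every window enriched, and no window of the Piwil4 body is enriched.

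The helicase Ddx4 (mouse Vasa), a constant part of germ granules, was the only one of the 10 genes with every window enriched. This state of its 28 windows (chr13:112598333-112652475, minus strand) was shared by 7.57% of protein-coding genes of at least 10 windows. The replicates had 2.58, 2.83 and 2.44 RPKM, and the window at the start already had 2.85, 2.77 and 2.71 with an H3K4me3 call. The 20 kb upstream had 1.42 ± 0.484, with 0.810 ± 0.417 in the nearest 10 kb. Mael encodes Maelstrom, a nuage protein needed for transposon silencing, and was lower, with 1.37, 1.34 and 1.69 RPKM (chr1:166201201-166238747, minus strand). Of its 18 valid windows 13 were enriched and only 5 were above 1 in each replicate. The start window was called for H3K4me3 and H3K27me3 with 3 reads in all, and the highest window was the last, with 2.17, 3.17 and 5.75.

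Tdrd1, a Tudor protein that binds methylated PIWI proteins, was as highly marked as the oocyte genes, with 2.50, 2.69 and 2.94 RPKM and 22 of 23 windows enriched (chr19:56826209-56870012, plus strand). Its start window had 3.80, 1.19 and 6.09 RPKM and, as in Ddx4, calls for H3K36me3 and H3K4me3. The flanks of Tdrd1 were also marked, at 2.18 ± 0.342 upstream and 2.33 ± 0.503 downstream, so that the body exceeded the upstream flank by only 0.32 ± 0.21 on the log2 scale. Mov10l1, the RNA helicase that feeds piRNA precursors into processing, had 1.89, 1.90 and 2.31 RPKM (chr15:88982909-89055152, plus strand) with 27 of 33 valid windows enriched. Its start window was called for H3K4me3 and H3K27me3 at 0.822, and the 20 kb upstream had 0.263 ± 0.202 with all 10 windows called for H3K27me3. The part of Mov10l1 past its middle exceeded the part before it by 0.39 ± 0.11 on the log2 scale in 3 of 3 replicates (exact sign-flip p = 0.25).

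Pld6 encodes a nuclease of the mitochondrial surface that acts in piRNA production, and with 3.75 kb (chr11:59783897-59787645, minus strand) it covered 3 windows. They averaged 1.04, 0.925 and 1.13 RPKM from 40 reads (95% exact Poisson interval 28.6 to 54.5). The start window was called for H3K4me3 alone at 0.226, and the other two were enriched at 1.54 and 1.33. Its neighbours were more strongly marked, Flcn at 2.57 ± 0.227 and Mprip at 2.02 ± 0.0818, so that the body lay below the upstream flank by a log2 ratio of -1.26 ± 0.07. At this depth the call of Pld6 rests on few reads, and with windows assigned by midpoint its mean was 0.884.

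Set side by side, the genes of the oocyte (Dicer1, Ago2, Ddx4, Mael, Piwil2 and Pld6) had 2.02, 2.13 and 2.21 RPKM in replicates 1 to 3 with each gene weighted equally. The genes best known from the testis (Piwil1, Piwil4, Tdrd1 and Mov10l1) had 1.85, 2.02 and 2.13. Both groups were set from general knowledge of where the genes act, and no expression value was used. The log2 ratio was 0.09 ± 0.04, positive in 3 of 3 replicates (exact sign-flip permutation test, p = 0.25). A single gene set its sign. Without Piwil4, a choice made after the values were seen, the testis-biased genes were the higher ones, with a log2 ratio of -0.25 ± 0.06 in 3 of 3 replicates. All 6 oocyte genes and 3 of 4 testis-biased genes had means above 1. With Piwil2 and Pld6 counted as testis-biased the ratio was 0.22, and with the windows of each group pooled it was 0.25.

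The windows at the 5′ ends of the annotated genes fell into 3 kinds. In Ddx4, Tdrd1 and Piwil1 (at its distal start) this window carried both H3K36me3 and H3K4me3, in Ago2, Piwil2 and Pld6 it carried H3K4me3 alone, and in Mael, Mov10l1 and Piwil4 it carried H3K4me3 with H3K27me3. The principal start of Piwil1, inside the gene, had H3K36me3 alone. In Dicer1 both active marks were called, with H3K36me3 above 1 only in replicate 2. The shares of these kinds among the start windows of all protein-coding genes were not computed. H3K4me3 was called in 49 of the 261 member windows (18.8%, against 26.2% of windows of protein-coding genes) and H3K27me3 in 25 (9.58%, against 25.9%), of which 23 were those of Piwil4. No member window had both H3K36me3 and H3K27me3. The paper describes this combination as unusual, and its share among windows of protein-coding genes was not computed here. Over the 9 genes of at least 4 windows, the part of the body past its middle exceeded the part before it by 0.08 ± 0.10 on the log2 scale (2 of 3 replicates, exact sign-flip p = 0.50), which was within the spread. This value was 0.04 without replicate 1 and 0.14 without replicate 2.

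Promoters of these starts are printed to show what sequence lies under start windows of each kind. RefSeq promoters (GRCm38.p6, 250 bases before to 50 after a start) were at hand for 8 of the 10 genes. The table used had no entry for Ago2 and Piwil2. Each sequence below gives the 250 bases before the start, 5′ to 3′ in the direction of transcription, with matches to CACGTG (an E-box) or TCCCGC (the core of E2F sites) on either strand in capitals. Both motifs were searched with AACNGTT, the core of MYB sites, which matched none of the starts printed. CACGTG reads the same on both strands, and no match overlapped another motif.
Ddx4, start window with H3K36me3 and H3K4me3, chr13:112652311-112652560 minus strand: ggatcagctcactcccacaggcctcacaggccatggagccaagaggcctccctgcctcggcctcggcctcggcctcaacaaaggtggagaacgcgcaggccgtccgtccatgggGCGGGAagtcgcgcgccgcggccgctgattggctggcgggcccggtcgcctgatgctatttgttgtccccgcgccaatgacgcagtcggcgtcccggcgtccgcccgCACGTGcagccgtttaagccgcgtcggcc
Tdrd1, start window with H3K36me3 and H3K4me3, chr19:56825959-56826208 plus strand: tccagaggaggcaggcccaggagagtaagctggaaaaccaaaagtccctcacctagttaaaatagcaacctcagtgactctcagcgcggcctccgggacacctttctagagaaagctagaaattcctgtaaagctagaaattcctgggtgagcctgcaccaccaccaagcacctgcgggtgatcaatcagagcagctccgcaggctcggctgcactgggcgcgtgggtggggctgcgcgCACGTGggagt
Piwil1 distal start (GENCODE position), start window with H3K36me3 and H3K4me3, chr5:128702274-128702523 plus strand: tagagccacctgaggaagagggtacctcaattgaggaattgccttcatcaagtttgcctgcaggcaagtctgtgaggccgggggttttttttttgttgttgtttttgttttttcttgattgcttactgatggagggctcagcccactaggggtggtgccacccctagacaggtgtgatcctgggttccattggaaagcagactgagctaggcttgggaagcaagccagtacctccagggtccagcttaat
Piwil1 principal start, H3K36me3 alone, chr5:128735996-128736245 plus strand: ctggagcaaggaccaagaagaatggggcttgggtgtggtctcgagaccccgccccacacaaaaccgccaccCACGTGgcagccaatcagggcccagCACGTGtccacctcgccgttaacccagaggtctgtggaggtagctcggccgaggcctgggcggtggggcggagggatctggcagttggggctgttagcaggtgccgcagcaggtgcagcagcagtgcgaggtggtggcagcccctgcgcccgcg
Pld6, start window with H3K4me3 alone, chr11:59787658-59787907 minus strand: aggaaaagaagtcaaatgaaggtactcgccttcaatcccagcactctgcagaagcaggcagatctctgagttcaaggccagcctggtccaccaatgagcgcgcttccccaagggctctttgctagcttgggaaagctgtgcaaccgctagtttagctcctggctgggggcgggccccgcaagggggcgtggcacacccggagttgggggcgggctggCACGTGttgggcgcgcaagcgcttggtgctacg
Mael, start window with H3K4me3 and H3K27me3, chr1:166238745-166238994 minus strand: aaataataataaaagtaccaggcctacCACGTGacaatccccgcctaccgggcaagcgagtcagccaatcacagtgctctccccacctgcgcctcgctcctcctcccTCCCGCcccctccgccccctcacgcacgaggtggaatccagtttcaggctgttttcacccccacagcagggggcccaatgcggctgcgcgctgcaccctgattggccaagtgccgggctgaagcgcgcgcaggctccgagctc
Piwil4, start window with H3K4me3 and H3K27me3, chr9:14740673-14740922 minus strand: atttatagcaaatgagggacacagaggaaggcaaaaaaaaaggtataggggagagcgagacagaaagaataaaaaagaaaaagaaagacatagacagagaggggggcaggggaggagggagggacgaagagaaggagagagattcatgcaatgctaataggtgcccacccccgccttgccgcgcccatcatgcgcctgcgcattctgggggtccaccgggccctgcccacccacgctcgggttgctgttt

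Over the whole 300 bases, CACGTG was found at a listed promoter of 6 of the 8 genes, namely Ddx4, Mael, Mov10l1, Piwil1, Pld6 and Tdrd1. It was found at 8.09% of 26994 genes in the same table and in 7.15% of 32817 promoters. The principal promoter of Piwil1 held 2 copies, whereas the distal start held none. Dicer1 and Piwil4 had no match. TCCCGC was found at 3 of the 8 genes (Ddx4, Dicer1 and Mael) and at 22.1% of all genes, and AACNGTT only at the second RefSeq start of Piwil4. CpG dinucleotides numbered 49 at Dicer1, 38 at Ddx4, 24 at Mael, 18 at the principal start of Piwil1 and 11 at Piwil4, against a median of 7 over all promoters. At the distal start of Piwil1 there were 2. The distal start of Piwil1 and the start of Piwil4 thus had fewer CpGs than the other starts printed, and CACGTG was present under all 3 kinds of start window. A match describes the letters of a window and says nothing on binding.

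A wider list of 25 pathway genes was read in the same way, 8 of the microRNA and siRNA machinery and 17 of the piRNA pathway and germ granules. Of these, 21 had a mean above 1, against 52.5% of protein-coding genes. In the first set it was 5 of 8 (median 2.01) and in the second 16 of 17 (median 2.11), beside medians of 2.47 over the 10 members and 1.10 over all protein-coding genes. The 3 highest were Gpat2 at 2.76 ± 0.661, an acyltransferase relative on mitochondria that takes part in piRNA production, Tdrd5 at 2.70 ± 0.509, a Tudor protein of the granules, and Gtsf1 at 2.63 ± 0.458, a cofactor of PIWI proteins. The lowest were Tdrd6 at 0.424 ± 0.207, a Tudor protein of the chromatoid body of spermatids, Ago1 at 0.716 ± 0.0663 and Prkra at 0.804 ± 0.138, a partner of Dicer. Ago4 was the only other gene below 1. Tdrd6, like Piwil4, was called for H3K27me3 over most of its windows (8 of 9) and had no enriched window.

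**Figure D4:**
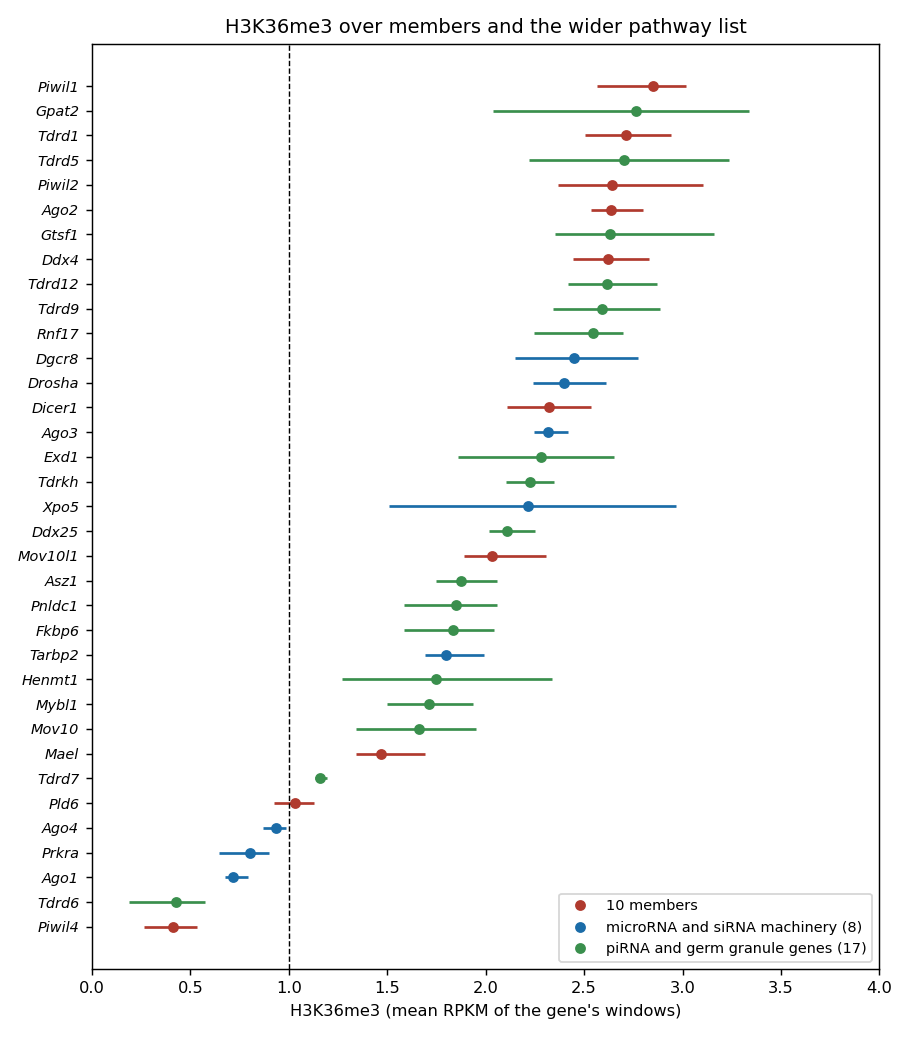
H3K36me3 (mean RPKM of the windows of a gene, horizontal axis) of the 10 members and 25 further pathway genes, ordered by level; points are means, lines the range of 3 replicates and the dashed line the threshold of 1. Tdrd6 (0.424) lies beside Piwil4 (0.412) at the bottom, and Ago1, Prkra and Ago4 are the other genes below 1.

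For comparison, 6 of 12 genes of meiotic recombination had a mean above 1 (list means of 1.21, 1.14 and 1.41 RPKM), and 10 of 12 genes of maternal mRNA storage did (1.69, 1.80 and 2.18). The 10 members, at 1.95, 2.09 and 2.18, exceeded the recombination genes by 0.73 ± 0.13 on the log2 scale in 3 of 3 replicates (exact sign-flip permutation test, p = 0.25). From the storage genes they differed by 0.14 ± 0.12, with 2 of 3 replicates positive (exact sign-flip p = 0.50).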

How the data were processed

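Reads had been trimmed and aligned to GRCm38 with Bowtie2 2.2.9 by the authors, who counted them over windows of 2 kb and removed windows with extreme input. Duplicate removal is not given in the sources used here. The deposited values, named RPKM by the authors, were given per window and replicate. Each was a whole multiple of 1 step per replicate, so reads were recovered by division (100% whole within 0.01 of a read). Division by window length could not be settled, so RPKM is a depth-scaled unit here. A second deposited table names the marks called per window, and its H3K36me3 call equals a mean above 1. Its H3K4me3 and H3K27me3 calls come from earlier libraries of the laboratory, and the table gives 1 call per window, not per replicate.

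A gene's level was the mean over the windows overlapping its GENCODE M21 body. Contrasts were log2 ratios within each replicate under an exact two-sided sign-flip permutation test (Python 3.11.15, numpy 2.4.6, pandas 2.3.3, scipy 1.17.1). The scripts were tested on simulated reads. P-values refer to the spread between pools, and intervals cover counting error only. Named were all 10 members, the 3 highest and 3 lowest genes of the wider list and the 5 genes most like Dicer1. Ago3, Ago4, single windows and promoter motifs were picked after their values were seen. Members and lists were chosen with earlier results of these data known. Alternatives changed how windows were assigned, the threshold, the pseudocount, boundaries and groups, or left out a replicate.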

Additional observations from a re-analysis of the deposited data

How the results depend on the processing

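Of 48 alternatives over 7 results, 44 kept the direction of a log2 ratio or left a count or share close to its main value. The size of a ratio was less stable. The oocyte genes against the testis-biased genes gave 0.22 with Piwil2 and Pld6 moved and 0.25 with windows pooled, against 0.09 ± 0.04. The Dicer1 step was 0.14 with the boundary at intron 7, against 0.75 ± 0.61. With a threshold of 2 in place of 1, 7 of the 10 members, 13 of the 25 wider genes and 63.2% of the member windows passed. With all 3 replicates required above 1, 67.0% of the member windows did. The 75th percentile of all protein-coding genes lay at 1.94, just below the threshold of 2. The shares of all genes and all windows at these settings were not computed. The sign of the oocyte genes against the testis-biased genes turned when Piwil4 was left out (log2 ratio -0.25), an alternative chosen after seeing the data. Leaving out each replicate in turn gave 8 to 9 members above 1, 21 wider genes, a share of member windows of 80.5% to 82.8%, and log2 ratios of 0.06 to 0.10 for the oocyte against the testis-biased genes, 0.41 to 1.01 for Dicer1 after against before intron 6, 0.76 to 0.81 for members against other genes, and 0.04 to 0.14 for gene bodies past the middle against before it. Limits: a window above 1 takes 8 reads in replicate 1 and 3 in replicates 2 and 3, so single windows are uncertain. Windows of 2 kb place no start more finely. The replicates are 3 pools, and no test here can pass 0.05. RNA was not analysed here, so H3K36me3 levels are not levels of transcripts.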
